A study of Mus musculus with 113 samples.

Results

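The RNA-binding proteins LIN28A and LIN28B, the let-7 target genes Hmga2, Igf2bp1, Igf2bp2, Igf2bp3 and Mycn, and Trim71, which belongs to the same circuit, were followed through mouse neural differentiation. These 8 genes were taken by their symbols from each of the 4 deposited gene tables, and all 8 were found in every table, among 13541 genes of the SFEB cell populations, 11449 of the SFEB single cells, 13738 of the adherent monoculture and 23107 of the E14 libraries. SFEB is a floating aggregate culture of embryonic stem (ES) cells in serum-free medium. R1 mouse ES cells gave 14 populations of a first SFEB series (0 to 142 h), 8 populations of a parallel series (0 to 216 h), 64 single cells at the 8 times of the parallel series (8 cells each) and 15 adherent samples (0 to 216 h). E14 mouse ES cells, wild-type (WT) or with a CRISPR/Cas9 deletion in Fyn that is carried by 1 clone (KO), gave 3 libraries each at day 0 (D0) and day 4 (D4) of neural induction. Only the E14 groups have replicates, and nothing says that these came from separate cultures, so their p-values measure the spread between the libraries, which may be technical.

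let-7 is a family of microRNAs that pair through a short seed with sites in the 3′ untranslated region (3′ UTR) of messenger RNAs and lower the output of those genes. LIN28A and LIN28B bind let-7 precursors and prevent their processing, in part by recruiting enzymes that add uridines to them, while let-7 in turn represses the Lin28 messenger RNAs, so each side of the circuit opposes the other. In the early embryo and in ES cells LIN28 is abundant and mature let-7 is scarce, and as neural precursors mature let-7 accumulates. The tables hold the levels of genes, and mature let-7 was not measured in them.

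The mature sequences of the family are shown because their shared seed defines the sites searched for below. They are those of RefSeq (build GRCm38.p6), written 5′ to 3′ with the seed, bases 2 to 8, in capitals.
let-7a-5p: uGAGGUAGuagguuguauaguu
let-7b-5p: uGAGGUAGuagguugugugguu
let-7c-5p: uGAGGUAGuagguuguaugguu
let-7d-5p: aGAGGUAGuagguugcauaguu
let-7e-5p: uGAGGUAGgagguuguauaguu
let-7f-5p: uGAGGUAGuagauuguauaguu
let-7g-5p: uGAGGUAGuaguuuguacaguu
let-7i-5p: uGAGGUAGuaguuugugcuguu
let-7k: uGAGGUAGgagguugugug
miR-98-5p: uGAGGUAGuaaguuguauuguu
let-7j: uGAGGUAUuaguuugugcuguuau
The first 10 of these mature microRNAs have the same seed, and let-7j differs from them at its last seed base.

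The site opposite this seed was searched for in the annotated 3′ UTR of every gene, on the transcript strand only, as the 8 bases CTACCTCA or, without the final A, as the 7 bases CTACCTC that lie within them. An 8-base match was present in 7 of the 8 genes, against 601 of 19915 genes with an annotated 3′ UTR (3.02%) and 4.91% of the 9668 genes whose 3′ UTR length lies in the range of these 8 genes. Igf2bp1 held 3 such matches, Lin28a and Trim71 2 each, and Hmga2, Lin28b, Igf2bp2 and Igf2bp3 1 each, with 3 further 7-base matches in Hmga2, 3 in Lin28b and 1 in Igf2bp1. At least 2 matches of 8 bases were present in 0.126% of all genes. The set was assembled from genes known as let-7 targets, so the frequency of matches restates how it was chosen. Mycn had neither match in its 3′ UTR of 910 bases, which says only that these letters are absent from the annotated stretch.

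One 8-base match of each of the 7 genes, the one nearest the stop codon, is shown with the match in capitals, in the direction of the transcript (all minus strand, build NCBIM37, which is mm9).
Lin28a, chr4:133561103-133561132: tggagtgcacagcctgttgaaCTACCTCAt
Lin28b, chr10:45100827-45100856: cccttcacccgggcgggaagtCTACCTCAt
Hmga2, chr10:119801279-119801308: gggggcgccgacattcaatttCTACCTCAg
Igf2bp1, chr11:95823091-95823120: ggcagtgctgtgcgaagtaaaCTACCTCAa
Igf2bp2, chr16:22059545-22059574: agaaaaacacacaaataaaagCTACCTCAg
Igf2bp3, chr6:49036785-49036814: taaacgtgcatttttactcaaCTACCTCAg
Trim71, chr9:114421589-114421618: aagtacaacattgcctaagtcCTACCTCAg
All of these sites are exonic and lie in the 3′ UTR. In Lin28b and Hmga2 the match begins at base 36 and base 58 of the 3′ UTR, close to its start, while in Igf2bp1 it begins at base 1715 of 6337.

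**Figure D1:**
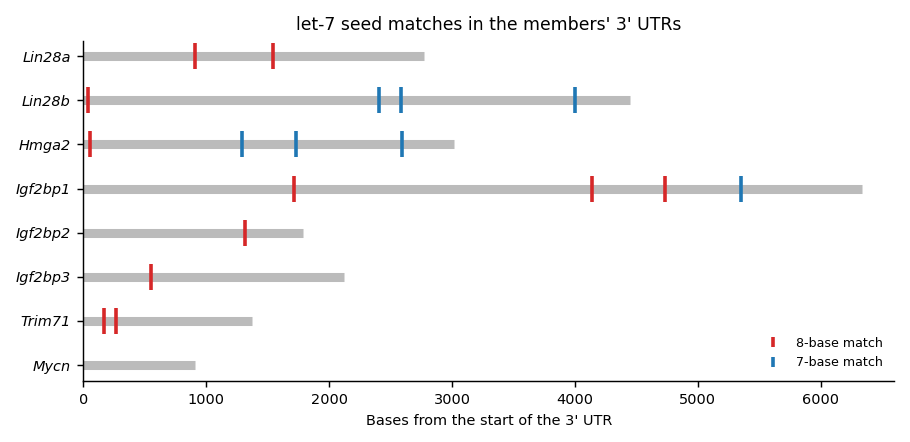
Position of let-7 seed matches along the annotated 3′ UTR of each gene, with distance from the start of the 3′ UTR in bases on the horizontal axis, grey bars for the length of the 3′ UTR, red marks for 8-base and blue marks for 7-base matches. Igf2bp1 has the longest 3′ UTR (6337 bases) and 3 red marks, and Mycn the shortest (910 bases) and none.

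Some facts of the libraries bear on all results. The SFEB population values carry a batch correction by the authors, and the read totals of single libraries are not given in the sources used here, beyond a minimum that the study states for the single cells and the parallel populations. The summed level of 10 fibroblast markers, which feeder cells express, was 1032 and 1064 FPKM (read fragments scaled for transcript length and for the number mapped) at 0 h of the first and parallel SFEB series and 695 at 0 h of the adherent culture, with no marker at 0, although the R1 cells had been passaged once without feeders, and stood at 129 at 22 h, 82.9 at 38 h and 158 at 20.5 h respectively. In adherent culture it stood at 247 again at 144 h, the day on which the protocol replates cells, and in E14 libraries it lay between 2.15 and 15.6. Among the E14 libraries KO D0 replicate 3 stood apart, with a summed level of 4 epiblast-like markers of 64.9 FPKM against 15.6 and 15.7 in the other KO D0 libraries, and WT D4 replicate 1 had a summed level of 5 neural progenitor markers of 139 against 14.8 and 36.6. Fyn, the deleted gene, was at 2.74 to 9.44 FPKM in the 6 WT libraries and at 0.598 to 1.58 in the 6 KO libraries, without overlap, and was lower in KO by 1.74 ± 0.24 (SE) on the log2 scale at D4 (limma, adjusted p = 0.0193) and by 1.29 at D0 (adjusted p = 0.0601). A gene's level in a mixed sample cannot tell fewer expressing cells from less RNA per cell.

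Lin28a was highest midway through all 3 time courses, and only the parallel series ended at its lowest value. In the first SFEB series it stood at 43.1 FPKM at 0 h, 92.3 at 8 h, 184 at 42.5 h and 207 at 103 h, and then at 149 at 126 h and 69.5 at 142 h. In the parallel series it was at 79.9 FPKM at 0 h, 179 at 60 h and 34.9 at 216 h, and in adherent culture at 107 at 0 h, 277 at 92.5 h and 119 at 216 h. The highest sample was 4.82 times the 0 h sample in the first series, 2.24 times in the parallel series and 2.59 times in adherent culture. A straight line in time passed the test in none of them, with slopes of 0.18 ± 0.08 (SE), -0.15 ± 0.07 and 0.09 ± 0.05 log2(FPKM + 1) per day (limma, adjusted p = 0.0781, 0.102 and 0.159), but a curve of any shape did in both courses where one was fitted, the first series and adherent culture (adjusted p = 1.96e-06 and 0.000196). From 22 h on, where the fibroblast markers were low, the slope of the first series was -0.09 (adjusted p = 0.351), and from 38 h on that of the parallel series was -0.30 (adjusted p = 0.00246). Without the last time point the lines of the first series (0.32, adjusted p = 0.00166) and of adherent culture (0.20, adjusted p = 0.00823) passed. On the rank of the time points both passed too (adjusted p = 0.0194 and 0.0375).

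Lin28b, the paralog of Lin28a, was lower in FPKM than Lin28a in every population sample of the courses and peaked at the same time or later. It stood at 7.97 FPKM at 0 h of the first series, 22.8 at 42.5 h, 44.2 at 126 h and 36.3 at 142 h. In the parallel series the values were 9.48 at 0 h, 31.6 at 144 h and 19.7 at 216 h, and in adherent culture 4.10 at 0 h, 28.6 at 92.5 h and 13.9 at 216 h. Between 103 and 142 h of the first series Lin28a went from 207 to 69.5 FPKM, and Lin28b lay between 35.1 and 44.2. The slope was 0.44 ± 0.04 log2 per day in the first series (adjusted p = 6.38e-07) and 0.23 ± 0.07 in adherent culture (adjusted p = 0.00931), while in the parallel series it was 0.14 ± 0.07 and missed the threshold (adjusted p = 0.116), though it passed without the last time point (0.32, adjusted p = 0.0178). From 20.5 h on the adherent slope was 0.13 with an adjusted p of 0.205.

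Hmga2, which encodes a chromatin architectural protein of embryonic and neural stem cells, had a trough and then a late rise in SFEB culture. In the first series it was at 23.2 FPKM at 0 h and 7.45 at 42.5 h, reached 42.0 at 103 h and was highest in the last sample, 84.7 at 142 h. The parallel series gave 29.8 at 0 h, 7.78 at 38 h, 62.0 at 144 h and 16.9 at 216 h. Adherent culture began near its lowest level, at 4.50 at 0 h and 3.55 at 35.5 h, and reached 40.3 at 92.5 h and 20.1 at 216 h. The SFEB samples of 0 h, with fibroblast markers at 1032 and 1064 FPKM in sum, thus had more Hmga2 than the adherent sample of 0 h, where that sum was 695, in tables that were normalized separately, and the part of fibroblasts in these values was not tested. The slope was 0.37 ± 0.10 log2 per day in the first series and 0.36 ± 0.07 in adherent culture (adjusted p = 0.00475 and 0.000505) and 0.08 ± 0.11 in the parallel series (adjusted p = 0.580), whose last sample is the low one of 216 h. From 22 h on the slope of the first series was 0.72 (adjusted p = 1.55e-06). A pseudogene row, Hmga2-ps1, reached 6.31 FPKM at 8 h and 6.59 at 9 h of SFEB culture and stayed at 2.03 or below in adherent culture, and reads of the gene and this copy may not be fully told apart.

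The 3 Igf2bp genes encode RNA-binding proteins that stabilize and localize messenger RNAs, and they differed in their course. Igf2bp3 rose in all 3 courses, from 15.1 FPKM at 0 h to 77.2 at 126 h in the first SFEB series, from 18.8 to 62.5 at 144 h in the parallel series, and from 17.8 to 82.3 at 92.5 h in adherent culture. Its slopes were 0.40 ± 0.03, 0.20 ± 0.05 and 0.31 ± 0.05 log2 per day (adjusted p = 9.25e-08, 0.00739 and 4.98e-05). In the parallel series from 38 h on the slope was 0.12 with an adjusted p of 0.0593.

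Igf2bp2 was highest late in all 3 courses. It stood at 22.2 FPKM at 0 h of the first series, between 16.6 (2 h) and 29.8 (34 h) until 68 h and at 56.3 at 126 h. In the parallel series it was at 30.3, 60.3 and 36.4 at 0, 144 and 216 h. In adherent culture it was at 18.5, 32.7 and 45.9 at 0, 80.5 and 144 h. The slope passed the test in the first series (0.23 ± 0.03 log2 per day, adjusted p = 6.85e-06) and in adherent culture (0.16 ± 0.03, adjusted p = 4.14e-05), and not in the parallel series (0.09 ± 0.04, adjusted p = 0.0787). There it passed without the last time point (0.19, adjusted p = 0.0208). Igf2bp1 lay between 68.7 and 122 FPKM in the first series, 55.2 and 118 in the parallel series and 67.7 and 153 in adherent culture. No straight line passed for it, the curve passed in the first series (adjusted p = 0.00124), and in adherent culture the curve missed the threshold (adjusted p = 0.0867). Without the last time point its line passed in the first series (0.12, adjusted p = 0.00498) and its curve in adherent culture (adjusted p = 0.00814). Its lowest adherent value was that of 144 h, the sample with fibroblast markers at 247 FPKM, and the samples before and after it had 131 at 140.5 h and 108 at 216 h.

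Trim71 and Mycn had negative slopes. Trim71, a ubiquitin ligase and RNA-binding protein of pluripotent cells, stood at 29.1 FPKM at 0 h of the first series, 61.0 at 22 h and 14.3 at 142 h. In the parallel series it was at 31.9 at 0 h, 44.6 at 38 h and 12.1 at 216 h, and in adherent culture it was highest at 0 h (36.2) and lowest at 216 h (14.5). The slopes were -0.16 ± 0.06, -0.15 ± 0.04 and -0.14 ± 0.02 log2 per day (adjusted p = 0.0292, 0.0100 and 3.10e-05). Without the last time point the decline no longer passed the test in either SFEB series (-0.09 and -0.07, adjusted p = 0.236 and 0.298). Neither passed on the rank of the time points (adjusted p = 0.0990 and 0.0641). From 22 h on in the first series and from 38 h on in the parallel series the slopes were -0.37 and -0.24 (adjusted p = 1.21e-06 and 0.000378).

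Mycn, a transcription factor of the Myc family that drives growth in progenitors, was highest at 42.5 h of the first series (93.7 FPKM, from 55.1 at 0 h), at 38 h of the parallel series (71.8) and at 53.5 h of adherent culture (103). It was lowest in the last sample of both SFEB series, at 37.9 and 24.2 FPKM, and in adherent culture at 140.5 h (40.8), with 41.8 at 216 h. The slope was -0.12 ± 0.04 log2 per day in the parallel series and -0.14 ± 0.03 in adherent culture (adjusted p = 0.0221 and 0.000821), and -0.09 ± 0.04 in the first series (adjusted p = 0.0660), where it passed from 22 h on (-0.19, adjusted p = 0.00767). Without the last time point the parallel slope was -0.03 (adjusted p = 0.581), and on the rank of the time points it did not pass either (adjusted p = 0.0822).

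**Figure D2:**
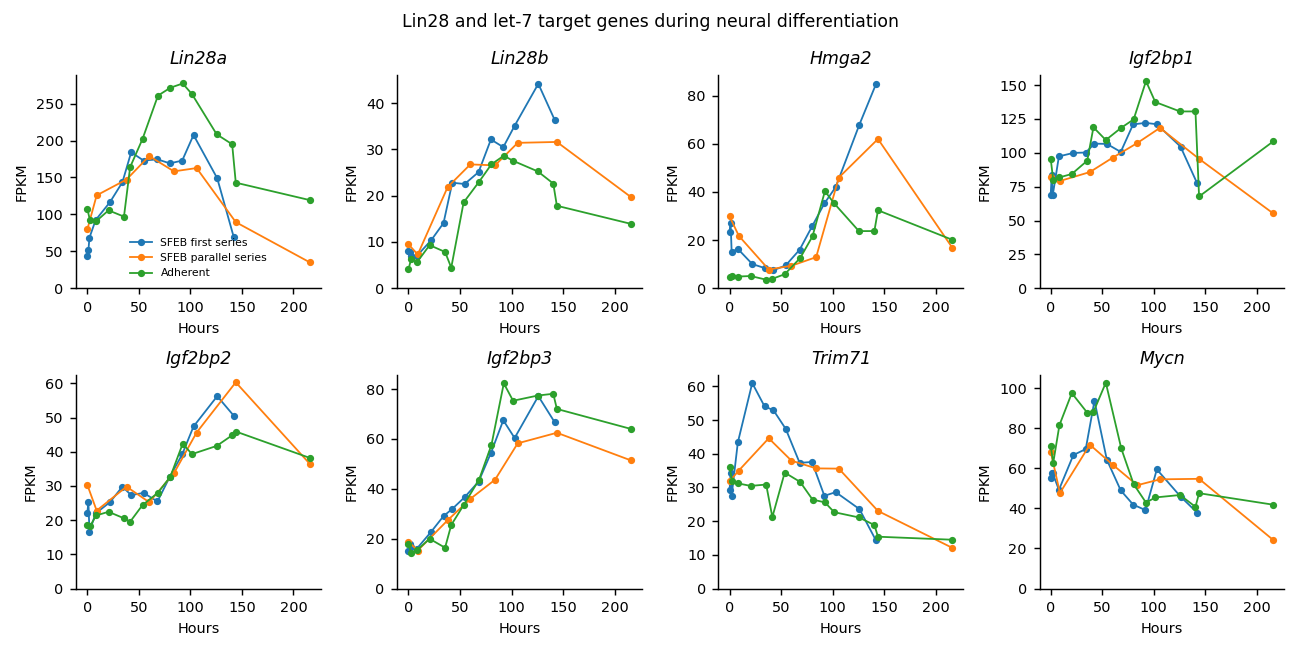
FPKM of each gene (vertical axes, from 0) against hours of neural induction in the first SFEB series (14 samples, blue), the parallel SFEB series (8 samples, orange) and adherent culture (15 samples, green); each point is 1 library. Lin28a is highest midway, Hmga2 in SFEB culture dips before its late rise, Igf2bp3 rises in all 3 courses and Trim71 and Mycn end near their lowest values.

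Counted together, straight lines passed the test for 5 of the 8 genes in the first series (4 rising, 1 falling), for 3 in the parallel series (1 rising, 2 falling) and for 6 in adherent culture (4 rising, 2 falling). Over all genes tested the same test was passed by 55.2%, 44.5% and 59.8%, with rises in 30.4%, 26% and 35.8% and falls in 24.7%, 18.5% and 24%. In each course the count of these genes called lay within 2 genes of what the background share gives, and none of the counts is read as a result about them. The split of directions in SFEB culture depends on the time scale and on the samples at either end. Without the last time point 6 genes rose and 0 fell in the first series and 3 rose and 0 fell in the parallel series, and on the rank of the time points 5 and 2 rose and 0 fell. With the early samples left out it moved the other way, to 4 rising and 2 falling from 22 h on in the first series and to 0 rising and 3 falling from 38 h on in the parallel series. In the parallel series without the 0 h sample 1 rose and 3 fell. In adherent culture 5 rose and 2 fell without the last time point and on the rank, and 3 rose and 2 fell from 20.5 h on. The curve of any shape passed for all 8 genes in the first series, against 80.3% of all genes, and for 7 in adherent culture, against 70.7%, with Igf2bp1 the exception (8 genes without the last time point). The samples of a course are single libraries ordered in time, so each p measures the scatter about the line or curve.

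**Figure D3:**
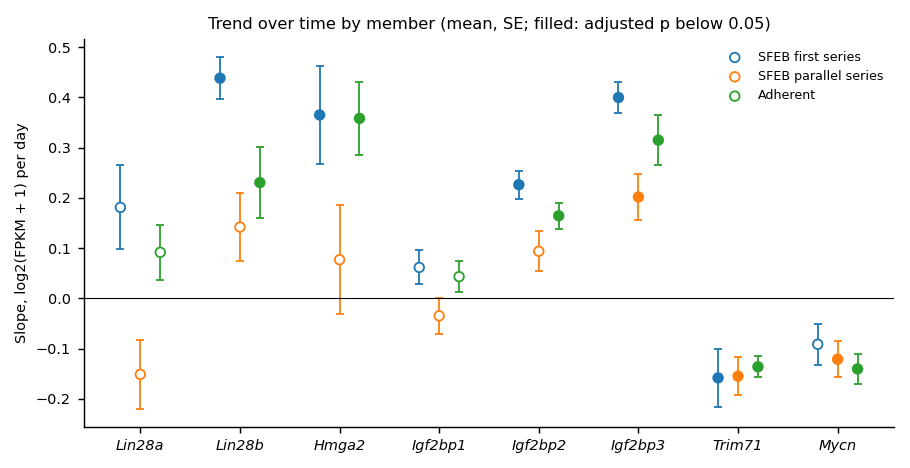
Slope of log2(FPKM + 1) per day for each gene in the 3 courses, with the standard error of the fit as bars and filled symbols where the adjusted p of limma is below 0.05. Slopes of Igf2bp3 are filled and positive in all 3 courses, those of Trim71 filled and negative in all 3, and those of Lin28a and Igf2bp1 open in all 3.

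In single cells, with presence set at 0.5 RPKM, Igf2bp1, Igf2bp2, Igf2bp3 and Mycn were present in nearly every cell and the other 4 genes in a part of them. Values are log10(RPKM + 1) after quantile normalization by the authors, the 8 cells of a time point count as 1 sample, and genes above 0 per cell ranged from 5648 to 10437, with the lowest median at 144 h (6145) and the highest at 0 h (8972). Of the 64 cells, 60 had Igf2bp3 above 0.5 RPKM, 59 Igf2bp1, 59 Mycn, 58 Igf2bp2, 30 Lin28a, 20 Lin28b, 18 Hmga2 and 3 Trim71. The counts depend on that level, since 54 cells had Lin28a above 0, 45 Lin28b, 44 Hmga2 and 17 Trim71, and all 64 had Igf2bp1, Igf2bp2, Igf2bp3 and Mycn above 0. Cell 16 of 216 h stood apart, with a summed level of 6 naive pluripotency markers of 570 RPKM against at most 19.9 in the other cells of that time, and the values of 216 h below are given without it too. Over the 63 cells without it the counts above 0.5 RPKM were 58 for Igf2bp1, 58 for Mycn and 57 for Igf2bp2, with those of the other genes unchanged.

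Lin28a was above 0.5 RPKM in 4 of 8 cells at 0 h, in 7 at 60 h (87.5%, exact 95% interval 47.3 to 99.7), in 6 at 106 h, in 3 at 144 h and in 0 of 8 at 216 h. For 0 of 8 cells the exact interval ends at 36.9%, and the rule of 3 (3 over the number of cells) gives 37.5%. Without cell 16 Lin28a was above 0.5 RPKM in 0 of 7 cells, with limits of 41% and 42.9%. At 216 h 6 of the 8 cells had a value above 0. These bounds cover counting error only. The highest single value was 1.69 at 84 h, and at 216 h the highest was 0.07. In the populations of the same times the lowest level was also that of 216 h.

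Lin28b was not above 0.5 RPKM in any cell at 0 or 9 h and was above it in 6 of 8 cells at 60 h (75.0%, exact 95% interval 34.9 to 96.8), in 4 at 84 h, in 3 at 106 h, in 1 at 144 h (12.5%, exact 95% interval 0.316 to 52.7) and in 3 of 8 at 216 h (3 of 7 without cell 16). The parallel population was highest at 144 h. At 0 and 9 h it was above 0 in 1 and 3 cells. Where it was present its level reached 1.21 at 216 h and 1.16 at 60 h. The means over cells had no slope past the threshold for Lin28a (-0.03 ± 0.03 per day, adjusted p = 0.681) or Lin28b (0.02 ± 0.02, adjusted p = 0.654), and without cell 16 the slopes were -0.03 and 0.03 (adjusted p = 0.657 and 0.554).

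Hmga2 was not above 0.5 RPKM in any cell at 0 h, with a highest value of 0.06 and 4 of 8 cells above 0, although the parallel population of 0 h had 29.8 FPKM. Fibroblast markers were high in some of these cells, up to 736 RPKM in sum, with a median of 7.75. Later it was above 0.5 RPKM in 4 of 8 cells at 144 h, where the highest reached 1.84, the median was 0.19 and the lowest of the 4 was 0.39, and in 5 of 8 at 216 h (5 of 7 without cell 16), where the highest was 1.42 and the lowest of the 5 was 0.20. Between 9 and 106 h it was above 0.5 RPKM in 1 to 3 of 8 cells at each time. Its slope was 0.06 ± 0.03 per day (adjusted p = 0.207), and 0.07 without cell 16 (adjusted p = 0.136).

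Of the 64 cells, 6 had both Lin28a and Hmga2 above 0.5 RPKM, 24 Lin28a alone, 12 Hmga2 alone and 22 neither. Lin28a was in most cells at 60 and 106 h and Hmga2 at 216 h. Lin28a and Lin28b were together in 11 cells, with 19 having Lin28a alone and 9 Lin28b alone. Of the 30 cells with Lin28a, 29 had Igf2bp3, and Igf2bp1 and Igf2bp3 were together in 55 cells. Without cell 16, which had neither Lin28a nor Hmga2 above 0.5 RPKM, 21 cells had neither and the counts of cells with both genes of a pair were the same. These counts carry no test, because cells of a time point share 1 culture.

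Mycn was above 0.5 RPKM in all cells until 106 h, in 7 of 8 at 144 h and in 4 of 8 at 216 h (3 of 7 without cell 16), with medians of 1.84 at 0 h, 1.99 at 38 h, 1.18 at 106 h and 0.19 at 216 h (0.12 without cell 16). Its slope of -0.13 ± 0.04 log10 units per day was the only one of the 8 that passed (adjusted p = 0.0484), against 2.73% of all 11449 genes called, 1.67% rising and 1.07% falling, and without cell 16 it was -0.14 (adjusted p = 0.0303). It did not pass without the last time point (adjusted p = 0.492), on the rank of the time point (0.123) or on log10 of the mean RPKM (0.183). Igf2bp3 went from a median of 0.58 at 0 h to 1.54 at 106 h and 1.47 at 216 h (1.50 without cell 16), with a slope of 0.09 ± 0.04 that did not pass (adjusted p = 0.156). Without cell 16 it was 0.11 and did not pass either (adjusted p = 0.0735).

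Trim71 was above 0.5 RPKM in few cells at times when the populations had it. Its populations at the 8 shared times had 12.1 to 44.6 FPKM, while the mean over cells lay between 0 and 0.486 RPKM and the highest value in any of the 64 cells was 0.66 on the log10 scale. Lin28a was likewise at 34.9 to 179 FPKM in the populations and at 0.0497 (216 h; 0.0454 without cell 16) to 13.5 RPKM as the mean over cells, whereas for Igf2bp2 the cell means and populations were 18.5 RPKM and 30.3 FPKM at 0 h, 26.6 and 29.8 at 38 h, and 10.9 and 60.3 at 144 h. The tables were normalized separately and no cause of these gaps was tested.

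**Figure D4:**
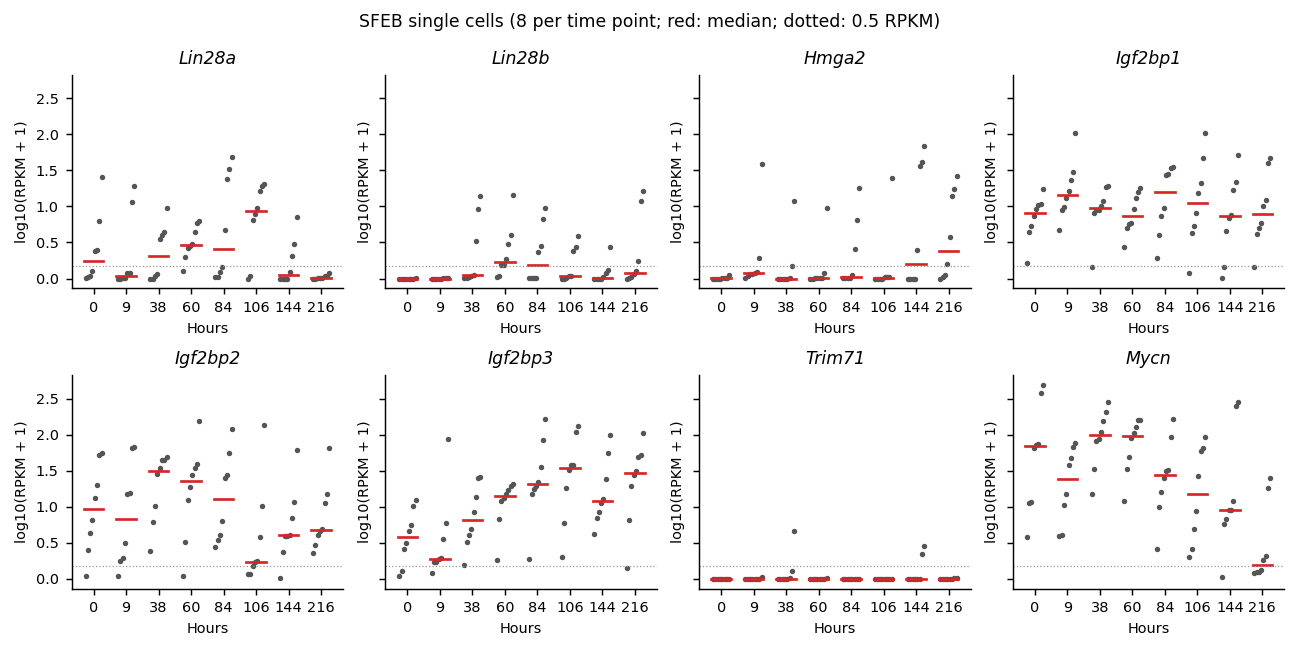
log10(RPKM + 1) of each gene in single cells (points, 8 per time point; red lines, medians) against hours of SFEB culture, with the dotted line at 0.5 RPKM. Hmga2 spans 0 to 1.84 among the cells of 144 h, Lin28a is absent above the dotted line at 216 h, and Trim71 is above it in 3 cells of 64.

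In the E14 cells, which were at D0 and D4 of neural induction, Lin28a rose in both genotypes. Libraries of WT D0 had 41.8, 7.27 and 7.44 FPKM (replicates 1 to 3), WT D4 142, 66.8 and 116, KO D0 13.01, 2.50 and 80.7, and KO D4 125, 108 and 126. Within each genotype the D0 and D4 libraries did not overlap, although KO D0 replicate 3 lay above WT D4 replicate 2. The log2 difference of D4 against D0 was 2.85 ± 0.92 in WT (limma, adjusted p = 0.0404) and 2.92 ± 0.92 in KO (adjusted p = 0.0454). Without KO D0 replicate 3 the KO difference was 4.10 ± 0.70 (adjusted p = 0.00223), and this library carries raised epiblast-like markers too. Each other library left out from KO ended the call (adjusted p = 0.0872 to 0.168). In WT each did so (adjusted p = 0.0554 to 0.138), except WT D0 replicate 1 (adjusted p = 0.0192). Without the filter on low values both calls were lost (adjusted p = 0.0730 in WT and 0.0855 in KO), and in KO also with a variance prior without a trend (0.0524).

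Lin28b rose as well, with 4.47, 1.401 and 1.25 FPKM at WT D0, 25.8, 7.30 and 12.3 at WT D4, 2.19, 0.209 and 2.56 at KO D0 and 9.63, 3.75 and 7.61 at KO D4. Groups of the same genotype did not overlap. The log2 difference was 2.22 ± 0.53 in WT (adjusted p = 0.0116) and 1.66 ± 0.53 in KO (adjusted p = 0.0483). The WT call held whichever library was left out, while the KO call held only without KO D0 replicate 3 or KO D4 replicate 2 (adjusted p = 0.0320 and 0.0437, and 0.0758 to 0.190 without one of the others). The KO call was also lost without the filter on low values, with a pseudocount of 0.1, after quantile normalization and with a variance prior without a trend (adjusted p = 0.0898, 0.0521, 0.0796 and 0.0532).

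Mycn rose too, from 19.6, 17.4 and 25.5 FPKM at WT D0 to 29.7, 62.4 and 52.8 at WT D4, and from 17.9, 28.8 and 48.6 at KO D0 to 62.9, 103 and 61.0 at KO D4. These groups did not overlap either, and the log2 differences were 1.13 ± 0.36 (adjusted p = 0.0373) and 1.29 ± 0.36 (adjusted p = 0.0261). The WT call was lost (adjusted p = 0.0551 to 0.121) unless WT D4 replicate 1 was the library left out (adjusted p = 0.0204). The KO call was lost (adjusted p = 0.0527 to 0.102) unless it was KO D0 replicate 3 or KO D4 replicate 1 (adjusted p = 0.00530 and 0.0457). Without the filter on low values the WT call was lost (adjusted p = 0.0638) and the KO call held (adjusted p = 0.0497). The first SFEB series and adherent culture have Mycn below its maximum at the nearest times, 92 h and 92.5 h, with 39.1 and 42.9 FPKM. Both values are also below those of 0 h in the same courses, 55.1 and 71.2 FPKM.

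Igf2bp2 rose in WT, from 16.5, 15.7 and 17.1 FPKM at D0 to 41.9, 43.5 and 32.9 at D4 (log2 difference 1.21 ± 0.25, adjusted p = 0.00558), a call that held without each library in turn. In KO it stood at 39.0, 24.9 and 23.1 at D0 and 27.6, 54.0 and 31.3 at D4, which overlap (0.34 ± 0.25, adjusted p = 0.356). The KO D0 libraries all lay above the WT D0 libraries. The difference between the changes, KO minus WT, was -0.86 ± 0.35 with an unadjusted p of 0.0303 and an adjusted p of 0.997.

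Hmga2 varied widely among libraries of the same group. WT D0 had 9.31, 12.7 and 14.5 FPKM and WT D4 15.9, 10.95 and 2.66, which overlap (log2 difference -0.52 ± 0.69, adjusted p = 0.621). KO D0 had 30.3, 26.8 and 3.25 and KO D4 3.14, 3.54 and 2.38, where KO D0 replicate 3 lies within the D4 range (-1.95 ± 0.69, adjusted p = 0.0698). Without that library the KO difference was -2.89 ± 0.49 (adjusted p = 0.00221). Over all 6 libraries left out in turn it ran from -2.89 to -1.45 and passed only in that case. Igf2bp1, Igf2bp3 and Trim71 had differences between -0.25 and 0.20 in both genotypes, none past the threshold.

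Of the 8 genes, 4 passed the test for a rise in WT and 0 for a fall, against 15.5% of the 12257 genes tested rising and 10.3% falling (25.8% in all). In KO 3 rose and 0 fell, against 11.8% and 7.56% (19.3% in all). With quantile normalization the split over all genes was more even, 1576 higher and 1532 lower in WT against 1904 and 1262. In KO it was 1226 and 1176 against 1443 and 927. Of the 8 genes 4 then rose in WT and 2 in KO. Groups did not overlap upward for 4 genes in WT and 3 in KO, against 25.8% and 21.9% of all genes, and downward for none, against 16.4% and 16.8%. The 2 genotypes have separate D0 libraries, so these are separate comparisons.

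Between KO and WT no gene of the 8 passed the test, at D4 (limma, 9 of 12257 genes called or 0.0734%, 0.00816% higher and 0.0653% lower, with 1483 at an unadjusted p under 0.05). The same held at D0 (21 genes called or 0.171%, 0.0408% higher and 0.131% lower, with 1785 at an unadjusted p under 0.05). Leaving out 1 library moved the D0 count to between 4 (without WT D0 replicate 2) and 128 (without WT D0 replicate 1) and the D4 count to between 5 (without KO D4 replicate 1) and 14 (without WT D4 replicate 3), with none of the 8 genes among them. None passed for the difference of the changes (0 genes called, 0%, with 537 genes at an unadjusted p under 0.05). Igf2bp3 came closest at D4, where the KO libraries (26.2, 35.8 and 39.3 FPKM) all lay below those of WT (54.7, 43.6 and 47.8), with a log2 difference of -0.53 ± 0.17, an unadjusted p of 0.00983 and an adjusted p of 0.244. At D0 it was lower in KO as well, at 32.4, 37.1 and 26.9 against 37.6, 45.1 and 44.0 (-0.39 ± 0.17, adjusted p = 0.326). Separation of 3 against 3 libraries downward was seen for 9.99% of all genes at D4 and 10.9% at D0. Upward it was seen for 6.54% at D4, none of them among the 8, and for 10.5% at D0, where Igf2bp2 was one (0.75 ± 0.25, adjusted p = 0.198). Libraries of equal replicate number at D4 were also compared as pairs, since their residuals correlated weakly. Lin28b, Hmga2, Igf2bp1 and Igf2bp3 were lower in KO in all 3 pairs and Mycn and Trim71 higher in all 3. This was seen for 20.9% and 17.6% of all genes, lower and higher. With the replicate block none of these 6 passed (limma, adjusted p = 0.197 to 0.461). Summed stage markers of the D4 libraries overlapped between the genotypes. The summed level of 5 neural progenitor markers was 4.87 to 20.6 FPKM in KO D4 and 14.8 to 139 in WT D4, that of 5 endoderm markers 0.72 to 6.40 and 3.17 to 32.7, and that of 4 epiblast-like markers 300.2 to 405 and 170.3 to 380. Median log2 differences of KO against WT at D4 were -2.40 over the 3 neural progenitor and -1.59 over the 3 endoderm markers tested and 0.81 over the 4 epiblast-like markers, against -0.03 over all genes, and no single one of these markers passed the test. At D0 the sum of 6 naive pluripotency markers did not overlap, at 849 to 943 FPKM in KO and 1010 to 1296 in WT. Nor did that of 5 neuron markers, at 121 to 206 in KO and 24.4 to 86.3 in WT. The sums of the other marker lists overlapped at D0. The part of these markers in the differences of the 8 genes was not tested.

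**Figure D5:**
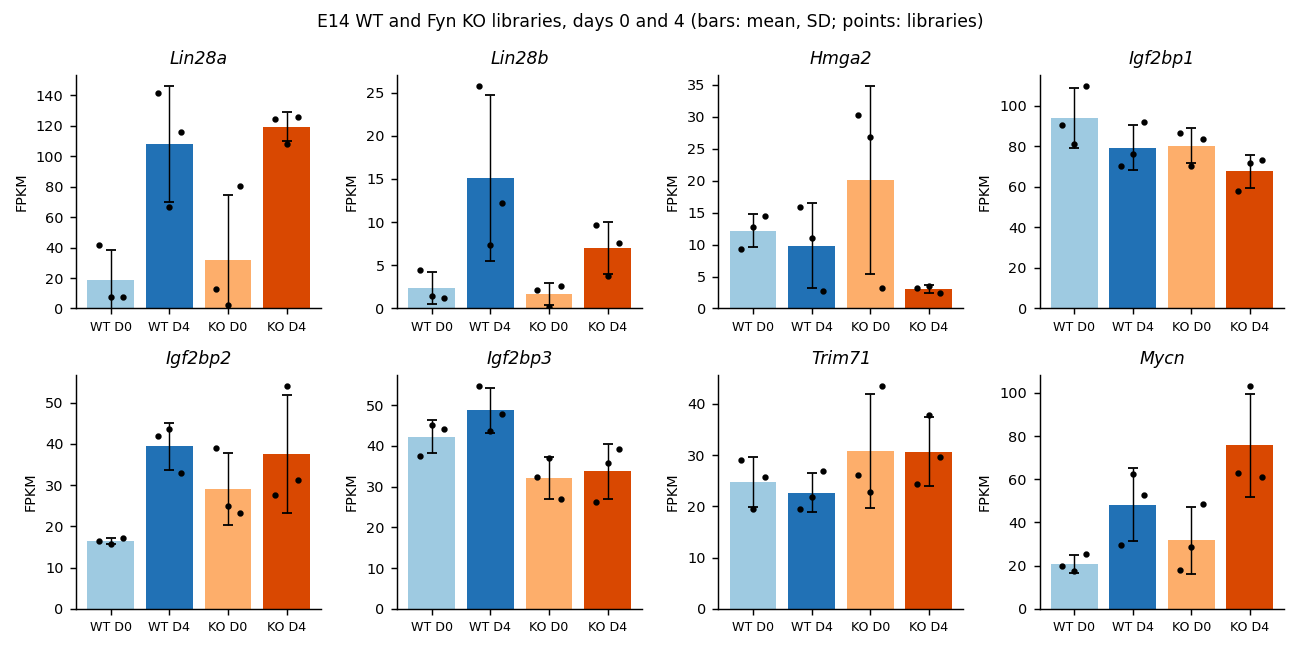
FPKM of each gene in E14 WT and Fyn KO libraries at days 0 and 4 (bars, mean of 3 libraries; error bars, SD; points, libraries in the order of replicates 1 to 3). Lin28a, Lin28b and Mycn are higher at D4 in both genotypes, and the third KO D0 library is high for Lin28a (80.7) and low for Hmga2 (3.25).

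Genes that process and use small RNAs, a list of 20, were examined for the machinery around let-7. In the first SFEB series 19 were tested, of which 9 rose and 1 fell, with a median slope of 0.07 against 0.01 over all genes, and in the parallel series 9 of 19 rose and 0 fell (0.06 against 0.01). In adherent culture 8 of 20 rose and 1 fell (0.06 against 0.02). The shares of all genes rising were 30.4%, 26% and 35.8% in these courses, and those falling 24.7%, 18.5% and 24%. Prkra, a protein partner of the nuclease Dicer, had the largest slope of the list in all 3 courses, with rises of 0.42 ± 0.03, 0.25 ± 0.04 and 0.35 ± 0.05 log2 per day (adjusted p = 1.38e-07, 0.00147 and 1.13e-05).

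Eif2c1, which encodes the Argonaute protein AGO1, rose by 0.28 ± 0.04 and 0.18 ± 0.02 in the SFEB series and 0.23 ± 0.03 in adherent culture (adjusted p = 3.07e-05, 0.000312 and 7.90e-06). Hnrnpa1, an RNA-binding protein of let-7 precursors, was among the 3 largest rises of the first series (0.24 ± 0.04, adjusted p = 4.51e-05). Dis3l2, the exonuclease that degrades uridylated let-7 precursors, rose in the 3 courses by 0.18, 0.14 and 0.15 (adjusted p = 0.00144, 0.0183 and 1.09e-06). The falls were those of Khsrp in the first series (-0.06 ± 0.02, adjusted p = 0.0323) and Tarbp2, another partner of Dicer, in adherent culture (-0.14 ± 0.02, adjusted p = 3.08e-05).

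In E14 cells 6 of 19 of these genes rose and 0 fell at WT D4, against 15.5% and 10.3% of all genes, with the largest rises in Prkra (1.42 ± 0.36, adjusted p = 0.0153), Tnrc6c (0.75 ± 0.17, adjusted p = 0.00992), a partner of Argonaute, and Dicer1 (0.65 ± 0.18, adjusted p = 0.0228). In KO 1 of 19 rose, Hnrnpa1 (0.74 ± 0.18, adjusted p = 0.0151), against 11.8% of all genes. None passed between KO and WT, and whether the WT and KO changes differ was tested and passed for none. In the means over single cells 0 of 18 rose and 1 fell, Tarbp2 (-0.14 ± 0.03 log10 units per day, adjusted p = 0.0136), against 1.67% and 1.07% of all genes, a call lost without the last time point and on log10 of the mean RPKM (adjusted p = 0.238 and 0.0842).

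Other genes known as let-7 targets, a second list of 20, moved in both directions. In the first series 10 of 19 tested rose and 2 fell, in the parallel series 7 rose and 3 fell, and in adherent culture 10 rose and 3 fell. Of all genes 30.4%, 26% and 35.8% rose in these courses and 24.7%, 18.5% and 24% fell. The list had median slopes of 0.12, 0.04 and 0.14 against 0.01, 0.01 and 0.02 over all genes. Nr6a1, an orphan nuclear receptor, Tgfbr1, a TGF-beta receptor, and Irs2, a substrate of the insulin receptor, rose most in the first series, by 0.43 ± 0.07, 0.42 ± 0.03 and 0.39 ± 0.06 log2 per day (adjusted p = 0.000161, 1.34e-07 and 6.83e-05). Tgfbr1 and Irs2 were also the largest rises in adherent culture (0.38 ± 0.08 and 0.36 ± 0.05). Cdk6, a kinase of the G1 phase, and Sall4, a zinc finger factor of pluripotent cells, fell in all 3 courses, Sall4 by 0.22, 0.18 and 0.14 log2 per day (adjusted p = 0.000926, 0.0114 and 1.51e-06).

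At D4 of E14 WT 8 of 19 of these genes rose and 1 fell, against 15.5% and 10.3% of all genes, and in KO 6 rose and 1 fell, against 11.8% and 7.56%. The largest rises were Ccnd2, a G1 cyclin (2.49 ± 0.54, adjusted p = 0.00697), Irs2 (2.15 ± 0.35, adjusted p = 0.00184) and Nr6a1 (1.94 ± 0.31, adjusted p = 0.00164) in WT, and Nr6a1 (1.73 ± 0.31, adjusted p = 0.00386), Irs2 (1.54 ± 0.35, adjusted p = 0.0116) and Igf1r, the receptor of insulin-like growth factor (1.41 ± 0.38, adjusted p = 0.0250), in KO. The fall in both was Cdc25a, a cell cycle phosphatase (-0.43 ± 0.14 and -0.45 ± 0.14, adjusted p = 0.0462 and 0.0477). In the means over single cells Ccnd2 rose (0.13 ± 0.03 log10 units per day, adjusted p = 0.0387) and Sall4 fell (-0.14 ± 0.03, adjusted p = 0.0289), of 18 tested, against 1.67% of all genes rising and 1.07% falling. Both calls held without cell 16 (adjusted p = 0.0195 and 0.0144). Both were lost without the last time point (adjusted p = 0.386 and 0.514), where 0 of the 11449 genes passed (limma, 1693 at an unadjusted p under 0.05), on log10 of the mean RPKM (adjusted p = 0.1998 and 0.230) and on the rank of the time points (adjusted p = 0.118 and 0.123).

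The seed match was also followed across all genes, leaving out the 8. In adherent culture 43.9% of the 458 genes tested with an 8-base match rose and 19.0% fell, against 35.6% and 24.4% of the 11847 without one. In the first SFEB series the shares were 38.3% and 19.0% of 452 genes against 30.2% and 24.99%, and in the parallel series 30.5% and 11.8% of 440 genes against 25.9% and 18.7%. At WT D4 22.5% of 405 genes with a match rose and 9.14% fell, against 15.7% and 10.5%, and at KO D4 14.3% rose and 7.65% fell, against 11.995% and 7.64%. The medians with and without an 8-base match were 0.044 against 0.011 log2 per day in the first series, 0.035 against 0.011 in the parallel series, 0.045 against 0.021 in adherent culture, 0.14 against 0.08 at WT D4 and 0.06 against 0.05 at KO D4. With the 7-base match, which takes in the 8-base one, the order of the medians turned at KO D4, where the 1167 genes with a match had 0.024 and those without one 0.058, with 12.6% and 12.02% rising and 8.05% and 7.59% falling. At WT D4 the 7-base medians were 0.11 against 0.08, with 19.5% and 15.5% rising and 10.6% and 10.4% falling. In the first series, the parallel series and adherent culture they were 0.034 against 0.009, 0.030 against 0.010 and 0.041 against 0.019 log2 per day. Length of the 3′ UTR was not matched between these groups, and the shares are descriptions.

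Genes whose course was most like each of the 8 were ranked by the lower of the 2 Pearson correlations over the 22 SFEB populations and the 15 adherent samples, among 12706 genes present in both tables. Igf2bp3 had the closest followers, Plch1 (lower r = 0.980), Fndc3c1 (0.971) and Mycl1, a relative of Mycn (0.971). Lin28b was followed by Pde3b (0.959), Slmo1 (0.951) and Prtg, a surface protein of the early neural tube (0.944), and Hmga2 by Gas1, a growth arrest protein (0.927), Spg20 (0.923) and the glypican Gpc6 (0.919).

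Igf2bp2 was nearest to Uhrf2, Ivns1abp and Hlcs (0.934, 0.932 and 0.913), and Trim71 to Ppat, an enzyme of purine synthesis, Heatr1 and Sdad1 (0.928, 0.919 and 0.910). The courses of Lin28a (Fam187b, Gja1 and Ppp2r1b, 0.883, 0.863 and 0.860), Mycn (Dmrt1, Csda and Aldh2, 0.866, 0.847 and 0.826) and Igf2bp1 (Ppp2r1b, Aldh9a1 and Csrp2bp, 0.835, 0.829 and 0.826) were less closely followed. With a pseudocount of 0.1 in place of 1, 19 of these 24 neighbours were named again. Prtg gave way to Pgbd1, Gpc6 to Crabp1, Fndc3c1 and Mycl1 to Pde5a and Sfrp2, and Aldh2 to Mcf2. The points of each correlation share their libraries and their order in time, so the coefficients are given without a test.

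Reads of Hmga2, Igf2bp3, Igf2bp1 and Lin28a may include those of annotated genes that overlap them (3, 2, 1 and 1 genes), since no source used here says that the libraries keep the strand.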

How the data were processed

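RNA-seq of ES cells in neural induction was taken from processed tables. Per the paper's methods the authors mapped reads with Tophat and computed levels with Cufflinks, and the submitters' processing notes name TopHat2 2.0.8b and Cufflinks 2.1.1, with build mm9, or mm10 for the E14 libraries. The authors deposited FPKM for the adherent and E14 samples. The SFEB population values deposited by the authors are FPKM after ComBat batch correction, treated here as a score on the FPKM scale, and 1256 of them were below 0 (none of the 8 genes) and set to 0. The single-cell values deposited by the authors are log10(RPKM + 1) after quantile normalization. For the single-cell table the authors state a filter of above 0.5 RPKM in at least 8 samples, and 2008 of its 11449 genes do not meet it over the 64 cells. The study states a minimum number of reads per library for the single cells and the parallel populations, but read counts were not used here, so the precision that depth gives each value could not be computed.

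Groups follow the labels. A 0 h population that lacks a sample type in its labels belongs to the first series according to its title. The 8 genes and the gene lists were chosen with earlier results of these data known. Tables were handled in Python 3.11.15 with pandas 2.3.3 and numpy 2.4.6, figures drawn with matplotlib 3.10.9. In R 4.3.3, limma 3.58.1 was fitted to log2(FPKM + 1), so fold changes of low genes are understated, over genes with at least 1 FPKM in at least 3 samples, with a trended variance prior and two-sided Benjamini-Hochberg adjusted p-values over all genes tested at 0.05: group means for the 12 E14 libraries, a straight line in hours for each course, given per day, a natural cubic spline of 3 degrees of freedom, and a line through the 8 single-cell means of all genes. Fits were tested on simulated data. With 3 libraries a group, permutation alone could not go under p = 0.1. The lists were examined by counts and medians, naming at most 3 rises and 3 falls per comparison, and all 8 genes were named.

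Whether equal replicate numbers pair the E14 libraries was checked by correlating residuals. For WT D4 and D0 these were 0.199, 0.220 and 0.224 and for KO and WT at D4 0.136, 0.258 and 0.240. Libraries of unequal number had -0.168 to -0.0111 and -0.196 to -0.0272. From these low correlations alone the libraries were taken as pairs, and a replicate block was an alternative. For KO D4 and D0 (0.0239, 0.0899 and 0.00112) and KO and WT at D0 (0.0628, 0.339 and -0.115) no pairing was taken. There libraries of unequal number reached 0.0301 and 0.253. Other alternatives were a pseudocount of 0.1, no filter, quantile normalization, a prior without a trend, each library or end point left out, and rank of time. Lines from 22, 38 and 20.5 h on were chosen after the data were seen. Genomic sites are from NCBIM37 with GENCODE annotation.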

Additional observations from a re-analysis of the deposited data

Results flagged for a closer look

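A row for the precursor of let-7d, Mirlet7d, lies outside the comparisons and had a value above 0 in 2 adherent samples, 32.2 FPKM at 20.5 h and 35.3 FPKM at 68.5 h, against 0 at 0 h and in the other 12 samples. It was noticed because it is a signal above the level of the untreated 0 h sample. FPKM of so short a gene rises steeply with few reads, and neither sample has a replicate. The 12 let-7 precursor rows of the E14 table were all at 0, and the SFEB tables hold none.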

How the results depend on the processing

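Of the counts of genes called, 66 of 91 alternatives gave a count within 1.5 times the reported one, and of the counts of the 8 genes called, 76 of 91. KO against WT called 9 genes at D4, 24 without the filter on low values and 17 after quantile normalization, and 21 at D0, 35 without the filter. The difference of the changes had 0 calls and 1 without the filter. The parallel SFEB trend had 5483 calls, and 2377 without the last time point. The single-cell trend had 313 calls, 18 on log10 of the mean RPKM, 488 without cell 16, 0 without the last time point and 96 on the rank of time, and its 1 call among the 8 genes became 0 on log10 of the mean, without the last time point and on the rank. Without the filter Igf2bp2 and Lin28b were still called in WT, 2 of the 8 genes instead of 4, and Mycn in KO, 1 instead of 3. A variance prior without a trend also left 1 in KO, Mycn, and a pseudocount of 0.1 left 2, Lin28a and Mycn. Genes with a 7-base match numbered 1753 against 601 with 8 bases. The cause of these shifts was not tested. Read counts were not used and for some libraries only a minimum depth is stated, so no limit from depth was computed.

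With the replicate block, KO D4 against D0 called Hmga2 as well (-1.95, adjusted p = 0.0348), for 4 of the 8 genes, and KO against WT at D0 called 38 genes and the difference of the changes 2, none of the 8, but the residuals did not pair the libraries of those comparisons. For the comparisons whose libraries were taken as pairs, the block changed no call among the 8 genes. It moved no count of calls by over 1.5 times (3563 genes in WT and 10 in KO against WT at D4).

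Leaving out 1 library gave 1831 to 2841 calls in WT (2 to 3 of the 8 genes), 1041 to 3063 in KO (0 to 4 of the 8), 5 to 14 between KO and WT at D4, 4 to 128 at D0 and 0 to 4 for the difference of the changes. The highest D0 count was without WT D0 replicate 1 and the lowest without WT D0 replicate 2.

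Signs reversed only for differences that had not passed the test. With 1 library left out, the WT difference of D4 and D0 ran from -0.97 to 0.13 for Hmga2 and from -0.27 to 0.0047 for Trim71, and the KO difference from -0.056 to 0.23 for Igf2bp3 and -0.16 to 0.29 for Trim71. KO against WT at D4 ran from -0.10 to 0.43 for Lin28a and -0.40 to 0.070 for Igf2bp2, and at D0 from -1.04 to 1.23 for Lin28a, -0.65 to 0.13 for Lin28b, -0.26 to 1.19 for Hmga2 and -0.0010 to 0.45 for Trim71. The difference of the changes ran from -1.02 to 1.25 for Lin28a, -0.13 to 0.10 for Igf2bp1, -0.26 to 0.029 for Igf2bp3, -0.042 to 0.41 for Trim71 and -0.17 to 0.52 for Mycn.

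Among slopes, from 22 h on those of Lin28a and Igf2bp1 in the first series were -0.086 and -0.022, and from 38 h on that of Lin28b in the parallel series was -0.021, in alternatives chosen after seeing the data. Without the last time point Lin28a had 0.025 and Igf2bp1 0.071 in the parallel series and Lin28a 0.022 in single-cell means, and Igf2bp1 had 0.013 on log10 of the mean RPKM.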
